A study of Mus musculus with 8 samples.

Results

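Mouse sperm libraries rich and poor in RNA of the mitochondrial ribosome are described here. The sets were chosen by a measured value, the share of all reads in the annotation class of mitochondrial rRNA: 4 of 8 libraries had over 0.5% of their reads there and are called rich, and the other 4 had less and are called poor. Each library came from 1 male mouse, and each set holds 2 libraries of activated mice and 2 of control mice. Activated mice were Agrp Cre/+ and controls Agrp +/+, and all of them received an AAV carrying the Cre-dependent hM3Dq-mCherry receptor in the arcuate nucleus at 8 weeks of age and clozapine N-oxide (CNO, 1 mg/kg) 3 weeks later. In the activated mice Cre is made in AgRP neurons, the hunger neurons of the hypothalamus, so that CNO excites them, while the controls lack Cre and got the same virus and drug. Food was removed 1 h before CNO, and mature sperm of the cauda epididymis were taken 4 h after it. Small RNA was sequenced from 100 ng of RNA, and reads of 15 to 45 nt were kept. The libraries are written A1 to A4 (activated) and C1 to C4 (control): A2, A3, C1 and C3 are rich, and A1, A4, C2 and C4 are poor.

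Mammalian sperm carry their mitochondria in a sheath around the midpiece of the tail, and these hold their own genome, which encodes a small (12S) and a large (16S) ribosomal RNA, transfer RNAs and a set of mRNAs. The 12S and 16S genes lie next to each other, are transcribed together with the tRNAs that flank them, and are cut apart at those tRNAs. Mitochondrial tRNAs receive the bases CCA at their 3′ end from an enzyme, and mitochondrial rRNAs and mRNAs can receive added adenosines there. The other small RNAs of mature sperm are mainly fragments of tRNA (tsRNA) and of rRNA (rsRNA), miRNAs, which guide silencing complexes through their seed, and piRNAs, which act in the germ line.

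The sequences that the results turn on come first. The mitochondrial fragments below were read in the deposited files and lie in the mouse genome of build GRCm38. The first is the most abundant fragment of the 12S rRNA (mt-Rnr1, chrM:70-1024, plus strand), from its base 1 to base 37. The next pair share the first 20 bases of the 16S rRNA (mt-Rnr2, chrM:1094-2675, plus strand), which are in capitals. The last pair are the 3′ ends of mitochondrial tRNA-His (mt-Th, chrM:11576-11612) and tRNA-Thr (mt-Tt, chrM:15318-15355), with the added CCA in capitals.
mt-Rnr1 1-37: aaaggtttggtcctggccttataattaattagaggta
mt-Rnr2 1-20: ACTAATCCTAGCCCTAGCCC
mt-Rnr2 1-43: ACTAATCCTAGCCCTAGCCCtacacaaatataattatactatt
mt-tRNA-His CCA end: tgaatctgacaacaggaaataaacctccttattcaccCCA
mt-tRNA-Thr CCA end: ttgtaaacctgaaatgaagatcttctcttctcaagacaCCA

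The miRNAs are shown as mature sequences of RefSeq (GRCm38.p6), with the seed, bases 2 to 8, in capitals, grouped by seed. Of 53 miRNAs named by rule or counted lower, 43 had a sequence there. The first group holds the most abundant miRNA of these sperm, miR-16, and its relatives, the groups after it hold miRNAs counted lower in the rich libraries, and of the last pair miR-191 overlapped between the sets and miR-92a lay higher in the rich libraries.
miR-16-5p: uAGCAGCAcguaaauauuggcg
miR-15b-5p: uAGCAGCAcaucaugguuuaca
miR-195a-5p: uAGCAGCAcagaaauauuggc
let-7g-5p: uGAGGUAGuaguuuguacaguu
let-7i-5p: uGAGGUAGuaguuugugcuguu
miR-26a-5p: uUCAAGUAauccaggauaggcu
miR-26b-5p: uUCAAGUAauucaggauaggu
miR-148a-3p: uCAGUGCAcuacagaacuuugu
miR-152-3p: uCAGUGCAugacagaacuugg
miR-191-5p: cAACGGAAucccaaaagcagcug
miR-92a-3p: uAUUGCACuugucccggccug

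The values that chose the sets were 1.89% in A2, 1.69% in A3, 1.21% in C1 and 1.09% in C3, against 0.182% in A1, 0.167% in C2, 0.145% in A4 and 0.123% in C4. The library just inside the threshold is thus C3 and the one just outside it A1, and no library lay between them. Almost all reads of the class matched the 12S gene, mt-Rnr1, for example 330638 of 330642 in A2. Because the libraries were sorted by these values, rich and poor are compared below as a description, with no test. The total was 14903635 reads in A1, 17489698 in A2, 14757501 in A3, 9409491 in A4, 12421068 in C1, 23123740 in C2, 9297271 in C3 and 14348060 in C4, so that the sets overlap in depth. Reads without a mismatch to the genome were 72.9% in A2, 63.4% in A3, 67.2% in C1 and 59.1% in C3, and 74.4% in A1, 74.6% in A4, 74.4% in C2 and 77.7% in C4. All 4 rich libraries were below all 4 poor ones in this share.

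Some libraries stood apart in single RNAs. C4, a poor control, held 22222 CPM (counts scaled to the size of the library) of miR-143 and 22926 of miR-145a, which are made in smooth muscle, where the other 7 libraries had 119 to 329 and 52.7 to 140.8. C3, a rich control, held 10.2% of its reads in 1 fragment of 28S rRNA of 36 nt that does not match the genome, against a median of 0.299% in the others. A3, a rich activated library, had the most reads with neither an annotation nor a genome match, 18.5%. Several results that rest on C3 or C4 are therefore given without them as well. Counts of single fragments between rich and poor and the values of nuclear rRNA are given with all libraries only.

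The separation in 12S rRNA was fixed by the choice of the sets, and its values show only how far apart they lie. The 12S rRNA took 1.90% of all reads in A2, 1.70% in A3, 1.21% in C1 and 1.102% in C3, and 0.183% in A1, 0.146% in A4, 0.169% in C2 and 0.124% in C4. The rich mean was 1.48% ± 0.381 and the poor mean 0.155% ± 0.0260 (SD, n = 4 each), a ratio of 9.51. The 16S rRNA, which the choice of the sets did not use but which comes from the same libraries and transcription unit, took 6.45% in A2, 5.98% in A3, 5.90% in C1 and 6.41% in C3, and 1.87% in A1, 1.65% in A4, 1.89% in C2 and 2.12% in C4. Its rich mean was 6.18% ± 0.285 and its poor mean 1.88% ± 0.192, a ratio of 3.28, and the sets again did not overlap. The 4 libraries of each set were close to each other in 16S rRNA. The number of 12S reads for every 100 of 16S was 29.4 in A2, 28.4 in A3, 20.6 in C1 and 17.2 in C3, and 9.78 in A1, 8.85 in A4, 8.93 in C2 and 5.84 in C4, without overlap. This number uses the 12S reads that chose the sets, so it is not separate from that choice. What lies behind the difference was not tested. Among reads of 30 to 45 nt alone the ratios of rich to poor were 7.09 for the 12S and 2.47 for the 16S rRNA, and relative to the nuclear rRNA reads 7.98 and 2.64, without overlap in each case. Whether the rich sperm held more mitochondria or more mitochondrial rRNA in each cannot be told apart here, nor can fewer cells of a type and less RNA per cell in any of the comparisons that follow.

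**Figure D1:**
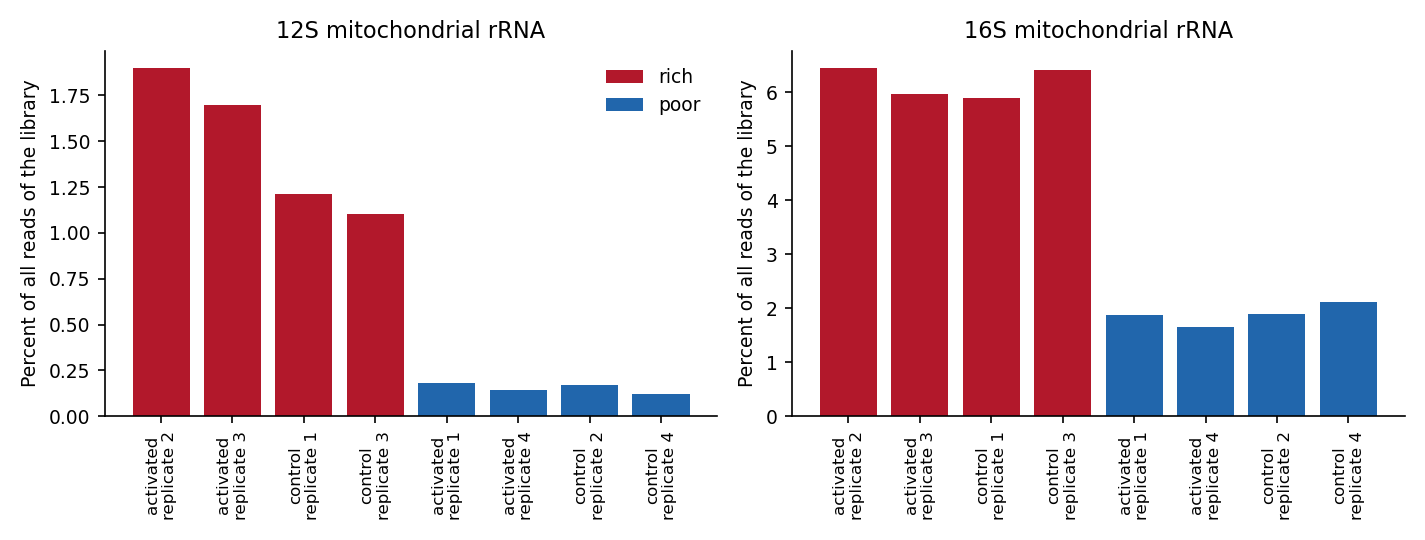
Bars give the percent of all reads of each library that were 12S (left) and 16S (right) mitochondrial rRNA, in rich (red) and poor (blue) libraries, 1 mouse each. Rich libraries had 1.102 to 1.90% of 12S and 5.90 to 6.45% of 16S reads, and poor ones 0.124 to 0.183% and 1.65 to 2.12%.

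Along both genes, the higher coverage of the rich libraries was not limited to single places. The 12S reads are those that chose the sets, so that for mt-Rnr1 the windows and starts show where the chosen difference lies and add no separate result. In windows of 20 bases, all rich libraries were above all poor ones in 47 of 48 windows of mt-Rnr1 and in 79 of 80 windows of mt-Rnr2. By the first base of the fragment, among starts with a mean of at least 10 reads scaled to the library size (RPM), the rich libraries were above the poor ones at 137 of 138 starts in mt-Rnr1, with a median ratio of 9.22, and at 408 of 420 in mt-Rnr2, with a median ratio of 3.87. The first window had the highest coverage in both genes in each library, except for mt-Rnr2 in A4. Fragments that begin at base 1 of the 12S rRNA had 7502 RPM in A2, 6942 in A3, 3746 in C1 and 3699 in C3, and 495 in A1, 332 in A4, 377 in C2 and 365 in C4. They were 13.9 times as frequent in the rich libraries, and the sets did not overlap. The fragment mt-Rnr1 1-37 had 2195 RPM in A2, 2254 in A3, 1120 in C1 and 1230 in C3, and 103 in A1, 83.9 in A4, 87.6 in C2 and 79.1 in C4, a ratio of 19.2.

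At the 5′ end of the 16S rRNA the sets were less apart. Fragments that begin at its base 1 had 10002 RPM in A2, 11887 in A3, 12245 in C1 and 23871 in C3, and 4960 in A1, 3254 in A4, 4281 in C2 and 11262 in C4. They overlapped through C4 (ratio 2.44), although coverage of the first 20 bases did not overlap, at 12825 to 26593 in the rich and 4077 to 11796 in the poor libraries. The 20-base fragment mt-Rnr2 1-20 had 1600 RPM in A2, 3472 in A3, 4912 in C1 and 12288 in C3, and 2895 in A1, 1527 in A4, 2301 in C2 and 7879 in C4. Here the sets overlapped, and the controls C3 and C4, 1 of each set, had the most. The longer fragment mt-Rnr2 1-43 had 1271 RPM in A2, 999 in A3, 835 in C1 and 1161 in C3, and 302 in A1, 280 in A4, 318 in C2 and 229 in C4. With the same first base but 43 bases it lay higher in all rich libraries, by a ratio of 3.78. Another fragment of 16S rRNA from base 1, mt-Rnr2 1-44, ranged from 725 to 1523 RPM in the rich and from 246 to 820 in the poor libraries and overlapped, while mt-Rnr2 1-40, with 556 to 1193 and 193 to 291, did not. Inside the gene, fragments that begin at base 748 had 1256 RPM in A2, 1129 in A3, 1125 in C1 and 1192 in C3, and 98.97 in A1, 91.7 in A4, 98.8 in C2 and 90.5 in C4. That start separated the sets by a ratio of 12.4, with little spread within either.

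**Figure D2:**
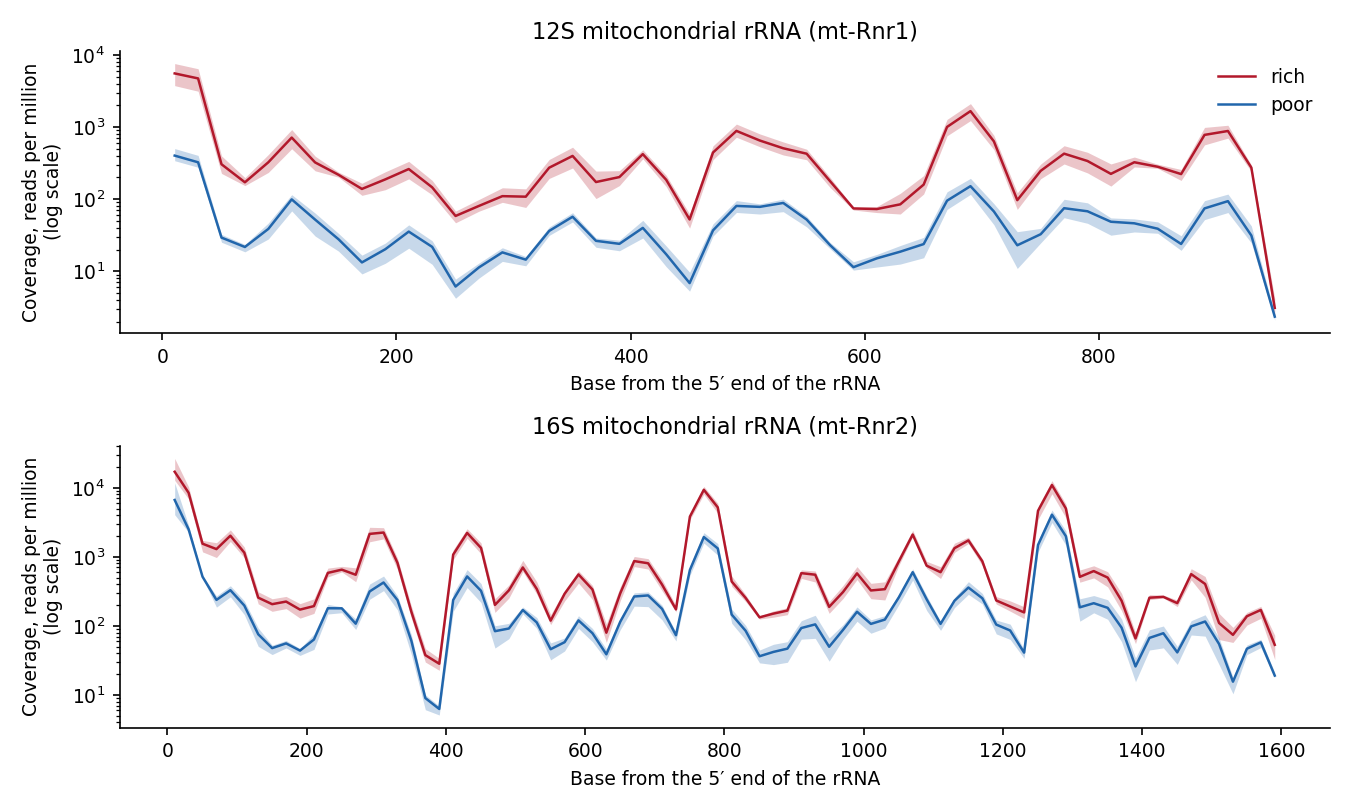
Lines give the mean coverage (RPM, log scale) of rich (red) and poor (blue) libraries in windows of 20 bases along the 12S (top) and 16S (bottom) mitochondrial rRNA, counted from the 5′ end, and bands give the range of the 4 libraries. The red band lies above the blue one in 47 of 48 windows of the 12S and 79 of 80 of the 16S rRNA.

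Many reads that the annotation left without a name also began as mitochondrial RNA. Reads of at least 20 nt with neither an annotation nor a genome match were sorted by whether their first 18 bases lie in a mitochondrial transcript. Those that did made up 5.11% of all reads in A2, 5.47% in A3, 4.37% in C1 and 4.03% in C3, and 1.16% in A1, 1.13% in A4, 1.16% in C2 and 0.965% in C4. Every rich library was above every poor one, and most of these reads were 16S rRNA, with a mean of 3.30% in the rich and 0.765% in the poor set. The rest of the unmatched reads overlapped, at 5.41 to 12.5% in the rich and 4.12 to 7.16% in the poor libraries.

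Most of the mitochondrial reads of this kind ended in adenosines that the genome does not hold. Reads with added A only were 3.62% of all reads in A2, 3.74% in A3, 3.06% in C1 and 2.69% in C3, and 0.660% in A1, 0.662% in A4, 0.671% in C2 and 0.566% in C4. The share within a gene moved too. Of the mt-Rnr1 reads, exact or extended, 28.4% ended in added A in A2, 30.3% in A3, 29.96% in C1 and 27.8% in C3, and 21.5% in A1, 23.4% in A4, 20.6% in C2 and 25.1% in C4. For mt-Rnr2 these were 25.6% in A2, 27.1% in A3, 25.0% in C1 and 21.7% in C3, and 18.3% in A1, 19.7% in A4, 18.6% in C2 and 14.6% in C4. In both genes all rich libraries lay above all poor ones. Within a gene, other added bases overlapped: they ended 8.81 to 10.2% of the rich and 9.81 to 11.1% of the poor mt-Rnr1 reads. Of all reads, mitochondrial ones with other added bases were 1.22 to 1.60% in the rich and 0.359 to 0.465% in the poor libraries, without overlap. On mitochondrial tRNA the share with added A was 8.20% ± 0.409 in the rich and 5.74% ± 0.705 in the poor set, without overlap. On miRNA hairpins, which are nuclear, it was 0.0540 to 0.0739% in the rich and 0.0612 to 0.181% in the poor libraries, which overlap. How adapter trimming acted on such ends was not tested.

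Fragments of mitochondrial tRNA also had more reads in the rich libraries. They took 3.11% of all reads in A2, 3.22% in A3, 2.69% in C1 and 2.64% in C3, and 2.001% in A1, 2.28% in A4, 2.25% in C2 and 1.61% in C4. The sets did not overlap, and the ratio of the means was 1.43. The part that does not match the genome, mainly fragments with the added CCA, was 1.95% ± 0.207 in the rich and 1.08% ± 0.147 in the poor set, also without overlap. The part that matches the genome overlapped, at 0.590 to 1.42% in the rich and 0.647 to 1.16% in the poor libraries.

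Among single mitochondrial tsRNAs, the CCA end of tRNA-His was the most abundant, with 16010 CPM in A2, 23763 in A3, 17241 in C1 and 18072 in C3, and 8043 in A1, 11674 in A4, 9838 in C2 and 10304 in C4. It was higher in each rich library than in each poor one (log2 difference 0.91, SE 0.21). The CCA end of tRNA-Thr had 4102 CPM in A2, 4771 in A3, 2227 in C1 and 3272 in C3, and 926 in A1, 1525 in A4, 1113 in C2 and 985 in C4. Again no rich library was as low as a poor one (log2 difference 1.62, SE 0.24). The 5′ end of tRNA-Arg had 565 CPM in A2, 396 in A3, 200 in C1 and 170 in C3, and 76.5 in A1, 117 in A4, 84.3 in C2 and 42.8 in C4. It had a log2 difference of 1.93 (SE 0.32), with the rich activated libraries above the rich controls. The 5′ end of tRNA-Met, in contrast, had 11800 CPM in A2, 8819 in A3, 4878 in C1 and 2621 in C3, and 6296 in A1, 6706 in A4, 8535 in C2 and 4452 in C4. Its sets overlapped (log2 difference -0.06, SE 0.39), and so did unspecified parts of tRNA-His, with 2569 to 3923 CPM in the rich and 2357 to 3099 in the poor libraries. By end, the median log2 difference was 0.91 over 11 CCA ends, 1.099 over 5 fragments of the 3′ end without CCA (0.31 without A2, 0.38 without A3, 0.41 without C1 and 0.64 without C2), 0.22 over 11 of the 5′ end and 0.62 over 21 other parts.

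Messenger RNA of the mitochondria, as far as it was read here, did not go with its rRNA. It was looked for only among reads that match the genome and have no annotation, so that reads annotated as mitochondrial DNA or piRNA are not included. Fragments that match the 13 mitochondrial mRNAs summed to 63.4 RPM in A2, 89.5 in A3, 50.2 in C1 and 96.7 in C3, and 68.2 in A1, 100 in A4, 241 in C2 and 52.4 in C4. The sets overlapped, and the highest value belonged to a poor library, C2. The most abundant of them, mt-Co1, which encodes a subunit of cytochrome c oxidase, ranged from 15.9 to 29.3 in the rich and from 15.8 to 82.0 in the poor libraries.

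Over the classes of small RNA, the largest shift outside the mitochondria was in miRNA. It took 28.9% of all reads in A2, 22.95% in A3, 26.0% in C1 and 17.8% in C3, and 37.8% in A1, 37.4% in A4, 33.2% in C2 and 47.1% in C4. All rich libraries were below all poor ones, with means of 23.9% ± 4.72 and 38.9% ± 5.87 (SD, n = 4 each). In CPM after TMM scaling (the trimmed mean of M-values) the class overlapped, at 204096 to 375257 in the rich and 370835 to 608118 in the poor libraries. The difference of -15.0 percentage points was -10.2 without C3 and C4 and -13.8 when mitochondrial reads were left out of the total. Reads annotated as piRNA were 14.7% in A2, 13.8% in A3, 14.1% in C1 and 9.77% in C3, and 17.3% in A1, 15.5% in A4, 14.8% in C2 and 15.6% in C4. They too were lower in the rich libraries, but by little: the highest rich and the lowest poor value were 14.7 and 14.8%, and the difference of -2.74 points was -1.63 without C3, the lowest rich library, and -0.21 as a share of the reads that match the genome. Nuclear rRNA overlapped, at 15.99 to 28.8% in the rich and 13.0 to 19.1% in the poor libraries, with C3 the highest, and so did nuclear tsRNA, at 8.05 to 15.4% and 8.03 to 11.6%. Other noncoding RNA was 3.10% ± 0.278 in the rich and 3.05% ± 0.318 in the poor set. Shares of a total depend on each other, so that a class can be lower in the rich libraries because others are higher. By length, reads of 21 to 23 nt were 22.99 to 34.4% of the rich and 38.4 to 53.8% of the poor libraries, and reads of 30 to 45 nt 40.1 to 52.0% and 24.2 to 37.1%, both without overlap.

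**Figure D3:**
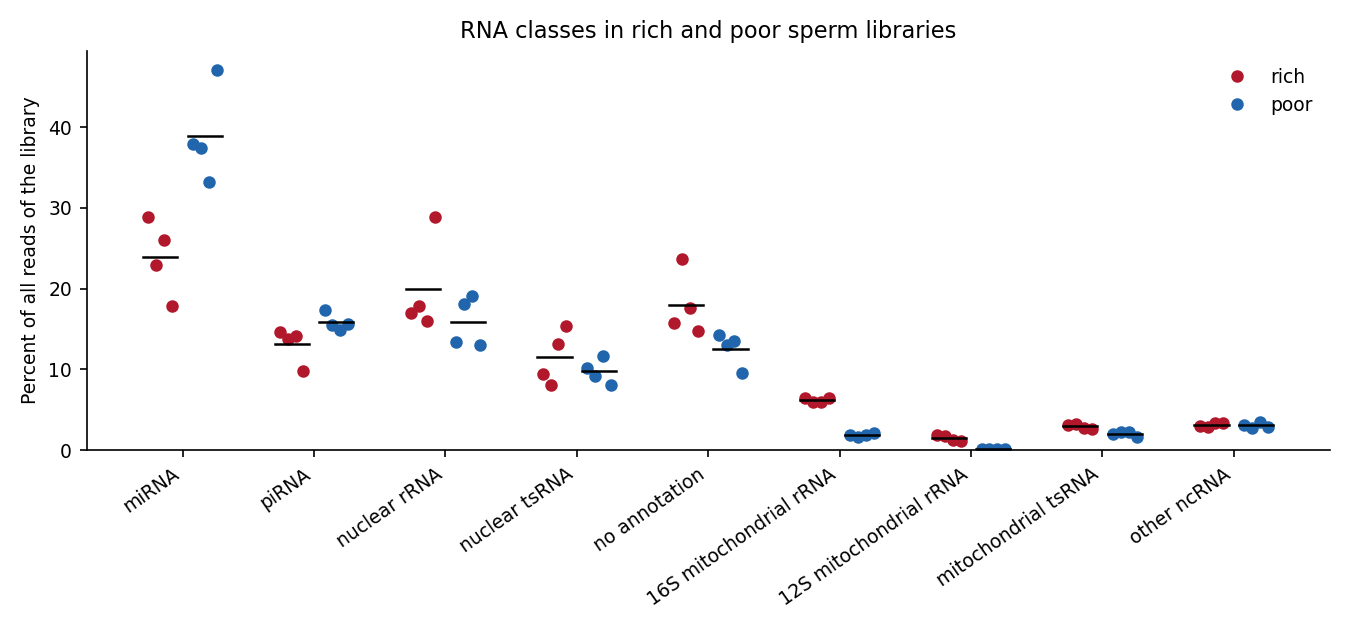
Each point is 1 library, as the percent of all its reads in each class of RNA, in rich (red) and poor (blue) libraries, and lines are the means of 4. The sets do not overlap for miRNA, piRNA, reads without annotation, 12S and 16S mitochondrial rRNA and mitochondrial tsRNA.

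For single RNA species, CPM were scaled by TMM, and the difference of rich minus poor was fitted with the condition as covariate. A species was counted as higher or lower where the log2 difference was at least 1 in size and the 4 rich did not overlap the 4 poor libraries. Of 587 species, 18 (3.07%) were counted higher and 28 (4.77%) lower. The 18 were 2 of 2 species of 12S rRNA, the 1 species of 16S rRNA, 11 of 48 mitochondrial tsRNAs and 4 of 74 other noncoding RNAs, of which a pair are annotated as mitochondrial DNA. All 28 that were lower were miRNAs, of 273. No nuclear tsRNA of 182, no nuclear rRNA of 6 and not the piRNA class was counted either way. Single nuclear tsRNAs were counted, however, when A2, A3, A4, C1, C3 or C4 was left out. The median log2 difference was -0.03 over all 587 species, -0.67 over miRNAs (-0.37 without C4 and -0.29 without C3 and C4), 0.63 over mitochondrial tsRNAs, 0.30 over nuclear tsRNAs, 0.22 over nuclear rRNAs and 0.07 over other noncoding RNAs. Without C3 and C4, chosen for removal after their values were seen, 19 species were counted higher, 15 of them among the 18, but 6 were lower, 2 of them among the 28. Without C4 alone 11 were lower, without C3 18, without A2 55 and without A4 44. The count of lower species thus depended on which libraries were included, whereas that of higher species stayed between 15 and 23 when any 1 library was left out.

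**Figure D4:**
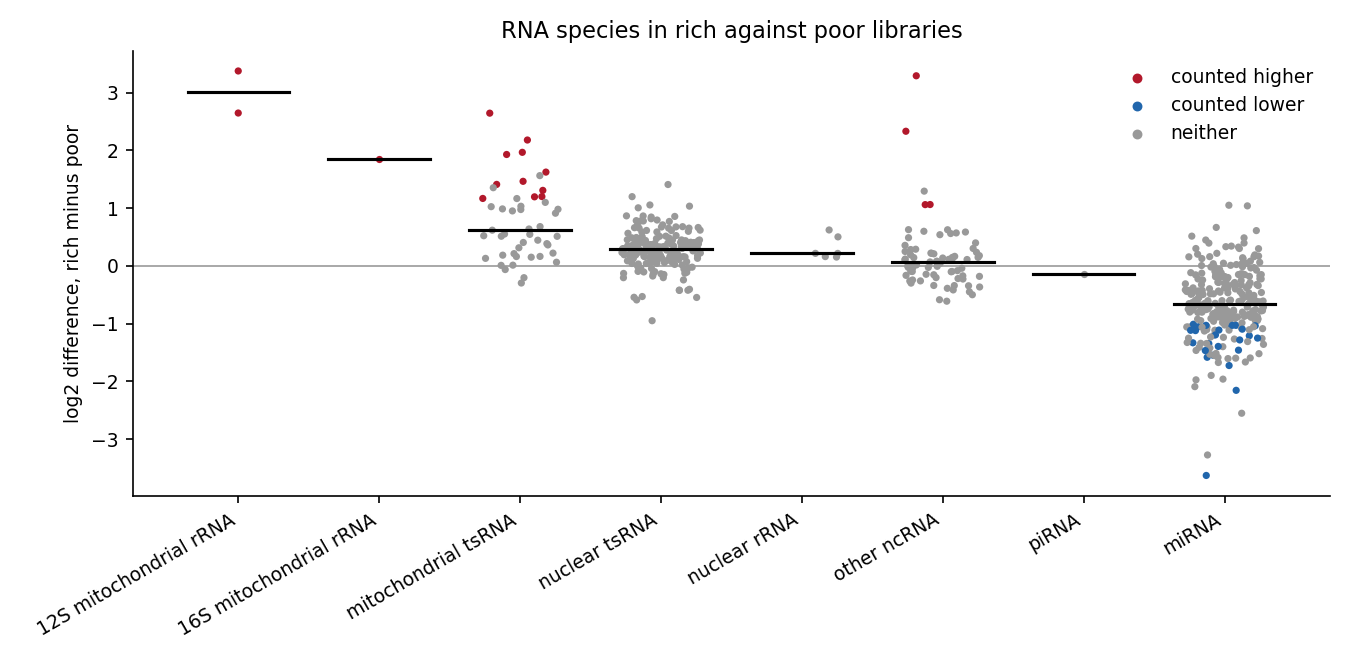
Each point is 1 of 587 RNA species, placed by class and by the log2 difference of rich minus poor libraries, with the median of each class as a line. Red marks the 18 species counted higher and blue the 28 counted lower, which are all miRNAs.

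miR-16, the most abundant miRNA, had 108352 CPM in A2, 74057 in A3, 74722 in C1 and 39685 in C3, and 120928 in A1, 124521 in A4, 122837 in C2 and 132223 in C4. Every rich library was below every poor one (log2 difference -0.79, SE 0.27), and C3 was the lowest. miR-195a, with the same seed, had 1457 CPM in A2, 916 in A3, 888 in C1 and 480 in C3, and 1778 in A1, 1907 in A4, 1609 in C2 and 2171 in C4, and was lower too (log2 difference -1.05, SE 0.30). miR-15b, also of that seed, had 29758 CPM in A2, 28185 in A3, 27404 in C1 and 16208 in C3, and 20161 in A1, 29213 in A4, 21599 in C2 and 27981 in C4. It overlapped (log2 difference 0.02, SE 0.24). miR-322, of the same seed, had 10.7 to 25.2 CPM in the rich and 25.5 to 93.1 in the poor libraries and was counted lower (log2 difference -1.39, SE 0.49). miR-15a (log2 difference -0.92, SE 0.26) and miR-497a (-0.95, SE 0.26), which share the seed, had all rich libraries below all poor ones and were not counted. Neither miR-195a nor miR-322 was counted lower without C4, and differences between miRNAs of that seed were not tested. miR-191 overlapped as well, with 48676 to 84361 CPM in the rich and 65530 to 94872 in the poor libraries. miR-92a, of the miR-17 to miR-92 cluster, had 2295 CPM in A2, 3195 in A3, 2647 in C1 and 2511 in C3, and 1418 in A1, 2225 in A4, 1776 in C2 and 2193 in C4. It was the 1 miRNA of 273 with all rich libraries above all poor ones, by a log2 difference of 0.48 (SE 0.21), while 61 had all rich libraries below. That depended on C4: miR-205, with a log2 difference of -0.63 over all libraries, was counted higher without C4, and without C3 and C4.

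Of all 273 miRNAs 28 were counted lower, among them a pair each with the let-7, miR-26 and miR-148 seeds, picked after their values were seen. The other let-7 miRNAs (let-7a to let-7f) and miR-98 overlapped, and miR-148b (log2 difference -0.74, SE 0.30) had all rich libraries below all poor ones but was not counted. let-7g had 3200 CPM in A2, 2504 in A3, 2005 in C1 and 1629 in C3, and 4897 in A1, 3671 in A4, 3608 in C2 and 6922 in C4 (log2 difference -1.06, SE 0.30). miR-26a had 2912 CPM in A2, 2129 in A3, 2269 in C1 and 2136 in C3, and 3696 in A1, 3144 in A4, 3751 in C2 and 10196 in C4 (log2 difference -1.05, SE 0.38). miR-148a had 489 CPM in A2, 348 in A3, 334 in C1 and 319 in C3, and 857 in A1, 668 in A4, 614 in C2 and 2092 in C4 (log2 difference -1.46, SE 0.42). In each of these C4 was the highest of the poor libraries, and the other 3 poor libraries were still above all rich ones. Their seed partners let-7i (log2 difference -1.34, SE 0.44), miR-26b (-1.55, SE 0.47) and miR-152 (-1.72, SE 0.65) showed the same order of the sets. Without C4 none of these 6 was counted lower, and none without C3 and C4. miR-143 (-3.63, SE 1.77) and miR-126a (-2.15, SE 0.95), which mark smooth muscle and vessel, had the largest negative differences among miRNAs of mean CPM 50 or more without overlap. Much of their size came from C4: the other libraries had 119 to 184 CPM of miR-143 in the rich and 246 to 329 in the poor set, and 59.99 to 75.9 and 91.7 to 130 of miR-126a. Without C4, miR-143 was still counted lower and miR-126a was not. miR-145a, at 73.0 to 140.8 in the rich and 52.7 to 76.9 in the poor libraries other than C4, overlapped.

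By list, the summed miRNAs of sperm and of testis overlapped between the sets. The miR-34 and miR-449 family, abundant in male germ cells and cells with cilia, summed to 21212 CPM in A2, 22398 in A3, 17443 in C1 and 15292 in C3, and 22329 in A1, 23777 in A4, 21329 in C2 and 19597 in C4. Its sets overlapped, and 0 of 5 members were counted higher or lower (28 of 273 lower over all miRNAs), with a median log2 difference of -0.18. Within it miR-34b ranged from 9877 to 13871 CPM in the rich and 6611 to 10587 in the poor libraries, miR-34c from 4983 to 9979 and 8632 to 13493, and miR-449a from 414 to 1145 and 1048 to 2214. Without C4, and without C3 and C4, miR-449a was counted lower. The miR-506 family of the X chromosome, made in the testis, summed to 18815 to 40894 CPM in the rich and 40573 to 47380 in the poor libraries. It overlapped in A2 alone, 16 of 18 members had a negative difference, with a median of -0.70, 0 of 18 were counted higher or lower, and 6 had all rich libraries below all poor ones. Over all 273 miRNAs 239 were negative, with a median of -0.67, 28 were counted lower and 61 had all rich libraries below all poor ones. By sign and median the family was thus close to miRNAs as a whole. Its most abundant members were miR-741, with 3063 to 6202 CPM in the rich and 6070 to 7818 in the poor libraries, miR-465a, with 2559 to 5945 and 6085 to 7144, and miR-743b, with 2152 to 4764 and 5195 to 6392.

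Markers of other cells were led by C4. The list for smooth muscle and vessel summed to 333 CPM in A2, 253 in A3, 285 in C1 and 347 in C3, and 511 in A1, 414 in A4, 495 in C2 and 46677 in C4, with miR-143 the most abundant and miR-133a and miR-1a too low to be tested. That list was below the poor range in all rich libraries, by a median log2 difference of -3.27, which was -1.66 without C1, -1.67 without C3 and -0.62 without C4. Families abundant in the epididymis (let-7, miR-10, miR-99, miR-100, miR-125 and miR-98), led by let-7a, summed to 15817 to 20176 CPM in the rich libraries and to 25966 in A1, 21453 in A4, 20230 in C2 and 124026 in C4. All 17 members had a negative difference, as did 239 of all 273 miRNAs, with a median of -1.26, which was -0.75 without C1, 0.19 without C4 and -0.01 without C3 and C4. Of single members, let-7a ranged from 5717 to 9281 CPM in the rich and 9253 to 17660 in the poor libraries, miR-10a from 1686 to 3518 and 1511 to 25708, and miR-10b from 1064 to 2265 and 1078 to 26230.

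The list for epithelium, led by miR-200c, summed to 1515 CPM in A2, 1537 in A3, 1535 in C1 and 3130 in C3, and 3436 in A1, 1335 in A4, 2041 in C2 and 25132 in C4. It overlapped, with C3 the highest rich and C4 the highest poor library. All 7 members had a negative difference, as did 239 of all 273 miRNAs, with a median of -1.53 against -0.67, and 0 were counted higher or lower. C4 had 9689 CPM of miR-200c, 8378 of miR-141 and 3114 of miR-200a. Outside C4, miR-200c was 624 to 1339 in the rich and 493 to 876 in the poor libraries. There miR-141 was 395 to 1155 and 571 to 1713, and miR-200a 119 to 270 and 135 to 470. Without C4, and without C3 and C4, miR-205 was counted higher. Without C3, and without C3 and C4, miR-141 was counted lower. miRNAs of erythrocytes, led by miR-451a, summed to 108 to 1111 CPM in the rich and 93.8 to 836 in the poor libraries, and those of leukocytes, led by miR-342, to 1300 to 4761 and 1571 to 2580, with A3 the highest and miR-155 not tested. Of the miRNAs of tissues not sampled, miR-124 of neurons was the most abundant, at 439 to 863 CPM in the rich and 781 to 1041 in the poor libraries, 1 of 3 members, miR-9, was counted lower (28 of 273 over all miRNAs), and miR-122 was not tested. The part of these cells in the miRNA differences was not tested beyond leaving out C3 and C4.

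Fragments of mRNA were summed by cell type as well. The 11 mRNAs of spermatids and sperm were read in every library and summed to 687 RPM in A2, 534 in A3, 694 in C1 and 497 in C3, and 593 in A1, 757 in A4, 716 in C2 and 522 in C4, led by Smcp, a protein of the mitochondrial capsule of sperm. The sets overlapped, and those mRNAs far exceeded any other list. The 5 of epithelium summed to 1.05 to 5.49 RPM in the rich and 0.531 to 1.88 in the poor libraries, with Krt18 at 0 in all poor libraries. The 5 of the epididymis, led by Crisp1, summed to 2.42 to 16.03 and 4.25 to 10.2, with Lcn5 at 0 in all libraries but C1 and Lcn8 in all but A2. The 5 of smooth muscle, led by Myh11, summed to 0.400 to 2.17 and 0.744 to 3.48, with Cnn1 at 0 in all libraries but A1, and 3 of leukocytes and germ stem cells, Ptprc, Lyz2 and Kit, to 0 to 0.430 and 0.0432 to 0.850, with Kit at 0 in all libraries but A1 and C4. The summed level was highest in C3 for epithelium and epididymis and in C4 for smooth muscle. These mRNA lists were chosen after values had been seen.

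Across miRNAs, the difference of rich minus poor went with base composition. Of 4 properties of each miRNA's most frequent fragment that were looked at (G and C content, length, first base and last base), the share of G and C had a Spearman correlation of 0.45 and a Pearson correlation of 0.40 with the log2 difference over 271 miRNAs, and length one of 0.06. miRNAs from the same libraries are not independent, and the correlation is a description. In 5 groups of rising G and C content, the median log2 difference was -0.91, -0.85, -0.67, -0.48 and -0.18. The group with the least G and C, led by miR-465a, summed to 22258 CPM in A2, 17924 in A3, 14058 in C1 and 11557 in C3, and 31918 in A1, 25857 in A4, 24210 in C2 and 44456 in C4. All rich libraries were below all poor ones in it, and 54 of its 55 members had a negative difference. The group with the most, led by miR-92a, summed to 11567 CPM in A2, 12719 in A3, 10590 in C1 and 8923 in C3, and 9121 in A1, 11892 in A4, 10294 in C2 and 15147 in C4. It overlapped, and 33 of 54 members were negative. By first base, miRNAs that begin with T had a median of -0.80 and the others -0.61, -0.43 and -0.40, and by last base all 4 medians were between -0.70 and -0.64. Leaving out C3 and C4 gave a Spearman correlation of 0.62, so that this relation did not rest on them.

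**Figure D5:**
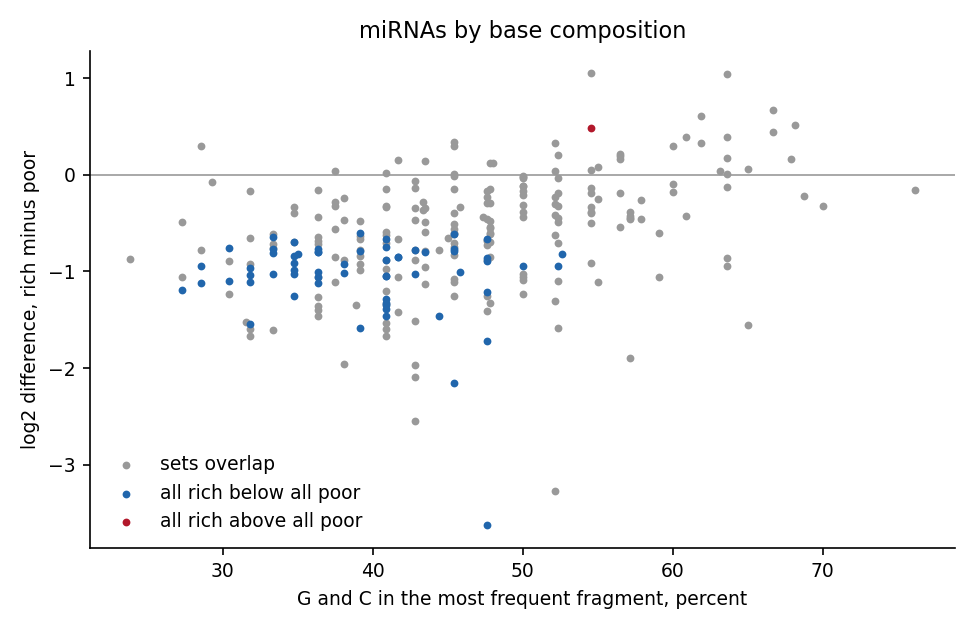
Each point is 1 of 271 miRNAs, placed by the percent of G and C in its most frequent fragment and by the log2 difference of rich minus poor libraries. Blue points have all rich libraries below all poor ones, the red point, miR-92a, has them above, and the points rise from left to right (Spearman 0.45).

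No nuclear tsRNA was counted higher or lower with all libraries included, but 28 of 182 had a negative difference and the others a positive one. That absence depended on the libraries included. The CCA end shared by tRNA-Leu-AAG and tRNA-Leu-TAG was counted higher without A2 and without A4. Without C4, species of tRNA-Ala were counted higher. A species shared by tRNA-Leu and tRNA-Ser was counted lower without C3, without C4 and without both. Summed CCA ends had 33974 to 42452 CPM in the rich and 25150 to 33474 in the poor libraries, and tRNA-Cys fragments 7738 to 10759 and 6723 to 7434, both without overlap. The sums of 5′ ends, of 3′ ends and of other parts overlapped, as did those of every other amino acid with 2 or more species. The 5′ end of tRNA-Gly-GCC, the most abundant, had 28923 CPM in A2, 19660 in A3, 26182 in C1 and 32657 in C3, and 16076 in A1, 14700 in A4, 32733 in C2 and 26243 in C4. The sets overlapped (log2 difference 0.33, SE 0.23), as they did for the CCA end of tRNA-Asp-GTC, with 11200 to 13357 CPM in the rich and 5612 to 12240 in the poor libraries, and the 5′ end of tRNA-SeC-TCA, with 6736 to 9874 and 7396 to 9433. The CCA end shared by tRNA-Leu-AAG and tRNA-Leu-TAG had the largest difference without overlap, with 461 CPM in A2, 677 in A3, 632 in C1 and 1065 in C3, and 345 in A1, 440 in A4, 312 in C2 and 428.97 in C4 (log2 difference 0.87, SE 0.27). Other parts of the same tRNAs were next (0.84, SE 0.23). Of 182 nuclear tsRNAs, 14 had all rich libraries above all poor ones and none below, where over all 587 species these were 43 and 64. By end, the medians were 0.39 for 35 at the 5′ end, 0.29 for 21 at the 3′ end, 0.29 for 53 at CCA and 0.22 for 73 other parts. By amino acid, with 2 or more species each, they ran from -0.42 for Met to 0.55 for Ala.

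Nuclear rRNA overlapped in each of its 6 species. Fragments of 28S rRNA had 186088 CPM in A2, 223766 in A3, 150199 in C1 and 286363 in C3, and 110991 in A1, 171924 in A4, 176347 in C2 and 139003 in C4, with C3 the highest. Fragments of 18S rRNA ranged from 16847 to 26030 CPM in the rich and from 12504 to 23341 in the poor libraries. The log2 differences of 45S, 5S, 5.8S and 4.5S rRNA, 1 species each, were 0.62, 0.22, 0.16 and 0.15. Among other noncoding RNA, misc_RNA had 1831 CPM in A2, 2089 in A3, 2666 in C1 and 2604 in C3, and 1368 in A1, 1480 in A4, 1675 in C2 and 1487 in C4, all rich above all poor (log2 difference 0.60, SE 0.16). The sets overlapped for snoRNA, with 2935 to 7483 CPM in the rich and 1995 to 6883 in the poor libraries, for lincRNA, with 3931 to 6915 and 4442 to 6207, for snRNA, with 3333 to 3927 and 3357 to 4267, and for Y RNA, with 785 to 1643 and 1001 to 2244. The piRNA class as a whole had 111928 to 194844 CPM in the rich and 165687 to 201667 in the poor libraries, with a log2 difference of -0.14 (SE 0.20).

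Of 12077 single fragments, 2296 (19%) were counted higher and 6.14% lower. The higher ones included 98.5% of 206 fragments of 12S rRNA, whose reads chose the sets, 1061 of 1239 of 16S rRNA and 853 of 2017 with neither annotation nor genome match. Fragments of mitochondrial tRNA went both ways: 46 of 308 were higher and 12 lower, with a median log2 difference of -0.08, which was 0.89 for the 78 that do not match the genome and -0.32 for the 230 that do. Of the fragments without annotation, 974 began as mitochondrial RNA, and 810 of these were counted higher, against 43 of the 1043 that matched neither the genome nor a mitochondrial start. Lower ones were 355 of 1046 fragments of miRNA and 260 of 1946 annotated as piRNA. Of piRNA fragments of 21 to 23 nt, 185 of 816 (22.7%) were lower, against 19.6% of all fragments of that length. The shares were 11.9% and 8.10% at 15 to 20 nt, and 7.23% and 4.22% at 24 to 29 nt. At 30 to 35 nt 0 piRNA fragments were lower, and only 0.97% of all fragments were. The share over all fragments includes the piRNA and miRNA fragments themselves. At 15 to 20, 21 to 23 and 24 to 29 nt, the lower share was 37.4%, 33.5% and 27.5% of miRNA fragments. It was 0.87%, 1.12% and 2.75% of nuclear tsRNA fragments, and 3.85%, 0.95% and 0.54% of nuclear rRNA fragments. Of piRNA fragments that match the genome 34 of 568 were lower, and of those that do not, 226 of 1378. Nuclear tsRNA fragments were higher in 6 and lower in 14 of 1618, and nuclear rRNA fragments in 60 and 38 of 2709.

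Each set holds 2 activated and 2 control libraries, so the effect of AgRP neuron activation could be tested with the set as covariate. edgeR's quasi-likelihood test called 0 of 587 species (0%) after Benjamini-Hochberg adjustment (under 0.05, and a log2 difference over 1 in size), with 63 at an unadjusted p under 0.05 and a smallest adjusted p of 0.319. DESeq2 with the set as covariate called 9, of which 5 were higher and 4 lower. They were the 5′ ends of tRNA-Glu-CTC and tRNA-Glu-TTC, parts of mitochondrial tRNA-Asp, the 3′ end of mitochondrial tRNA-Lys, miR-451a, miR-486a/miR-486b, miR-669m, miR-669b/miR-669m and a species shared by miR-297a, miR-466f, miR-466m, miR-669f and miR-669m. edgeR called 2 without C4, the same tRNA-Glu ends. The 5′ end of tRNA-Glu-TTC, the species of smallest p, had 185 CPM in A1, 232 in A2, 191 in A3 and 121 in A4, and 521 in C1, 412 in C2, 585 in C3 and 241 in C4. All activated libraries were below all controls (log2 difference -1.24, SE 0.24, edgeR adjusted p 0.319), in the rich and in the poor set. edgeR with all libraries did not call it, while DESeq2 did. For a difference of the activation effect between the rich and poor sets, edgeR called 0 of 587 (0%) by the interaction, with 29 at an unadjusted p under 0.05, while DESeq2 called 6. Without C2, which leaves 1 poor control, edgeR called 36.

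Among single fragments edgeR called 137 of 12077 (1.13%) for activation, 124 higher and 13 lower. Only 12 of the 137 match the genome, where 6761 of the 12077 tested do. Of these 12, 2 were higher and 10 lower, with 8 of the lower ones nuclear tsRNA, of 1165 genome-matched nuclear tsRNA fragments tested. None began as mitochondrial RNA. Those tested included 206 fragments of 12S rRNA, 1239 of 16S rRNA, 308 of mitochondrial tRNA and 974 without annotation. None was counted higher or lower between rich and poor, against 19% and 6.14% of all fragments. Each set holds 2 activated and 2 control libraries, so a fragment that separates those groups must overlap between the sets. That absence was thus largely fixed by the design and gives no separate result. By class 94 had neither annotation nor genome match, of 2017 such fragments tested, and 31 were annotated as piRNA without a genome match, of 1378. The one of smallest p, of 39 nt and without annotation, had 7.13 CPM in A1, 5.01 in A2, 17.9 in A3 and 6.90 in A4, and 0.0702 in C1 and 0 in C2, C3 and C4 (edgeR adjusted p 0.00906), so that it was almost absent from the controls. The next 4 by p, an 18-nt piRNA fragment and fragments of 38, 35 and 29 nt without annotation, had 3.30 to 74.1 CPM in the activated libraries and 0.101 to 2.09 in the controls. The source of such fragments was not tested. In separate fits the count was 0 when only the 6761 fragments that match the genome were tested, and 0 with those of 50 counts in all 8 libraries. It was 0 without A1, A4, C2 or C4, 13 without A3, 35 without C3, 75 without A2 and 78 without C1, and DESeq2 called 484. The mean depth of activated minus control libraries was -657454 reads (exact permutation test, two-sided, p = 0.943).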

How the data were processed

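Small RNA of cauda sperm was sequenced in 8 libraries, 1 mouse each. The authors trimmed and matched the reads with SPORTS1.1, allowing 0 mismatches to the mouse genome (mm10) and to small RNA databases, and deposited counts of reads for each distinct sequence and tables of expected counts, in which class totals are whole and a read that matches several RNAs of a class is shared among them. Of these deposited tables of expected counts, only the class totals that chose the sets were used. The members and lists were chosen with earlier results of these data known. Species sum the counts of sequences with the same annotation. Reads without annotation (9.53 to 23.7% of a library) stayed out of library sizes and tests of species. Species and fragments with at least 50 counts in at least 4 libraries were fitted in edgeR 4.0.16 (R 4.3.3, TMM, quasi-likelihood, Benjamini-Hochberg), with DESeq2 1.42.0 as alternative. Tables used Python 3.11.15, numpy 2.4.6, pandas 2.3.3, scipy 1.17.1 and matplotlib 3.10.9. Fragments and shares are relative to all reads of a library. Mitochondrial and mRNA fragments were matched to GENCODE transcripts of GRCm38, mRNA from 20 nt and only among genome-matched reads without annotation. Named species were, by class, the 3 of highest mean CPM and the 2 with the largest difference in each direction among those of mean CPM 50 or more without overlap, the 3 most abundant of each miRNA list, the 5 most abundant mitochondrial rRNA fragments, and up to 5 fragments called for the condition, by p. miR-195a, miR-322, miR-15a, miR-497a, miR-26, miR-98, miR-148, let-7 members other than let-7a, miR-152, tRNA-Glu ends and base 748 of the 16S rRNA were chosen after their values were seen.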

Additional observations from a re-analysis of the deposited data

Results flagged for a closer look

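In 49 of 356 groups of 4 libraries (rich, poor, activated or control), 1 library lay far from the other 3 relative to the range of the group. Chance alone sets some groups apart in this way, and the groups share libraries and RNAs. No cause was tested.

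C4 stood apart most often, among the poor and among the control libraries. Its miRNAs of smooth muscle and vessel summed to 46677 CPM, those of the epididymis-abundant families to 124026 and those of epithelium to 25132. Single miRNAs of C4 apart in both groups were miR-143 (22222 CPM), miR-145a (22926), miR-126a (1530), miR-10a (25708), miR-10b (26230), miR-200c (9689), miR-141 (8378) and miR-200a (3114). miR-146a (422 CPM) was apart among the controls, and smooth muscle mRNA (3.48 RPM) and reads of 24 to 29 nt (10.8%, the lowest) among the poor libraries.

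C3 stood apart among the rich libraries, with 28.8% of nuclear rRNA, 12.7% of reads of 24 to 29 nt (the lowest), 3130 CPM of epithelium miRNAs and 1111 of erythrocyte miRNAs. It was the highest there in miR-141 (1155 CPM), miR-451a (621), miR-144 (18.7), miR-145a (140.8) and parts of tRNA-Leu-AAG and tRNA-Leu-TAG (387.5). Its mRNA fragments of epithelium (5.49 RPM) and epididymis (16.03) were the highest too.

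A1 stood apart among the activated libraries, with 3436 CPM of epithelium miRNAs, 1713 of miR-141, 470 of miR-200a, 22.2 of miR-144 and 8.32 RPM of epididymis mRNA. It was the lowest there in miR-15b (20161 CPM) and miR-145a (52.7), and the highest of the poor libraries in miR-9 (195). A3 was the highest rich and activated library in leukocyte miRNAs (4761 CPM) and miR-342 (3764), and A4 the highest poor library in miR-128 (748).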

How the results depend on the processing

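Most alternatives were planned before these fits, but with earlier results of these data known. Those without C3 and C4, with reads of 30 to 45 nt and relative to nuclear rRNA, and those for the relation to G and C content, were chosen after seeing the data. Where a result changed, the cause was not tested.

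For activation, edgeR's 0 of 587 species (63 at an unadjusted p under 0.05) became 9 with DESeq2 and ranged from 0 to 2 when each library was left out (2 without C4). The 137 fragments became 52 without the set as covariate, 484 with DESeq2, 654 with a minimum of 10 counts, 0 with 50 counts in all 8 libraries and 0 in a fit of genome-matched fragments alone. Leaving out each library gave 0 to 78: 0 without A1, A4, C2 or C4, 13 without A3, 35 without C3, 75 without A2 and 78 without C1. The interaction's 0 species (29 unadjusted) became 6 with DESeq2 and 0 to 36 when each library was left out. The 36 were without C2, where the 1 poor control left is assumed to vary like the other groups.

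With a replicate block in place of the set, edgeR called 0 fragments. Activated and control libraries of the same number did not pair: their correlations were -0.51, 0.04, 0.53 and -0.11, and 1 of 4 was highest with its own number.

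Species counted higher became 4 with mitochondrial rRNA and tRNA reads left out, by construction. Species counted lower became 15 with genome-matched fragments, 16 with mitochondrial reads left out, 6 without C3 and C4, and 11 to 55 when each library was left out (55 without A2, 44 without A4, 18 without C3 and 11 without C4).

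Of all reads that match the genome, rich minus poor was 2.03 percentage points for 12S rRNA, 6.98 for 16S rRNA, 0.182 for mitochondrial tsRNA, 0.647 for no annotation, 0.520 for other noncoding RNA and -0.207 for piRNA. Of annotated reads it was 1.63, 5.39 and 1.24 for the first 3. The 16S ratio was 2.47 in reads of 30 to 45 nt and 2.64 relative to nuclear rRNA. The median of the epididymis-abundant families changed sign without C4 (0.19) and ranged from -1.58 to 0.19 when each library was left out. Of all list medians under these alternatives, those families included, 266 kept within the spread, 8 moved beyond it and 1 changed sign. With 8 libraries of 1 mouse each, small differences could not be detected.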
